A study of Mus musculus with 16 samples.

Results

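The guanylate-binding proteins are a family of large interferon-induced GTPases, and 10 of their mouse genes were followed here in neutrophils of the inflamed liver. The 10 genes, Gbp2, Gbp2b, Gbp3, Gbp4, Gbp5, Gbp6, Gbp7, Gbp8, Gbp9 and Gbp10, were taken by symbol from the 54532 genes listed in the count table. All 10 had a row. The RNA came from liver neutrophils of 8 chimeric mice, numbered 2 to 9 and C57BL/6 per the labels, whose blood cells were rebuilt from marrow of both genotypes. Wild-type hosts were irradiated with about 1000 cGy and given equal parts (50% each) of CD45.1+ wild-type marrow and CD45.2+ Ifngr1-/- marrow, then left for 8 weeks. They next received MC38 colon carcinoma cells in the flank and, 1 week later, a CD40 agonist (aCD40), an immunotherapy that can inflame the liver, and livers were taken 2 days after it. Every mouse gave a WT library and an IFNgR1-KO library, so that the 2 groups of 8 libraries shared the host, the tumour and the treatment, and no group was untreated. Genotype coincided with the marrow donor, the CD45 allele and the sort gate, so what each of these contributed cannot be told apart. The comparison asks how far each gene of the family depends on the interferon gamma receptor of the neutrophil itself.

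Interferon gamma binds a receptor whose ligand-binding chain is encoded by Ifngr1, and the signal passes through JAK kinases on its way to the nucleus. Gamma-activated sites (GAS) and interferon-stimulated response elements (ISRE), the latter bound by IRF1, are the DNA motifs through which it acts on guanylate-binding protein genes. The proteins assemble into coats on the vacuoles of intracellular parasites and on bacteria, help to break them open, and promote inflammasome activation and pyroptosis. Gbp2, Gbp2b and Gbp5 end in a motif for prenylation, the lipid tail that anchors them to membranes.

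The genes lie in 2 clusters, here placed on GRCm38, the build also called mm10. On chromosome 3 the plus strand carries Gbp5 (142493978 to 142522344), Gbp7 (142530342 to 142550149), Gbp3 (142560026 to 142573209), Gbp2b (142594847 to 142619179) and Gbp2 (142620602 to 142638008), within 144031 bases. On chromosome 5 the minus strand carries Gbp8 (105014150 to 105139540), Gbp9 (105077630 to 105139539), Gbp4 (105115767 to 105139586), Gbp10 (105215699 to 105239533) and Gbp6 (105270702 to 105293698), within 279549 bases. The annotated spans of Gbp4, Gbp8 and Gbp9 overlap on 1 strand, Gbp8 and Gbp9 by 61910 bases and Gbp4 and Gbp8 by 23774.

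Close copies share sequence, and that limits how reads can be assigned to 1 gene. The coding sequences of the chromosome 5 genes were 89.6% to 98.4% identical to one another, and the closest pair was Gbp6 and Gbp10, with 30 mismatches over 1833 coding bases and an identical run of 421 bases. On chromosome 3 identity reached 82.5% for Gbp2 and Gbp2b and 78.3% for Gbp3 and Gbp7, and it was 67.6% for Gbp2 and Gbp5. Of all 31-base words in the transcripts of Gbp10, 84.5% also occurred in another of the 10 genes, against 56.6% for Gbp6, 28.2% for Gbp8, 17.1% for Gbp9, 12.1% for Gbp4 and at most 5.64% for the chromosome 3 genes. Counts of Gbp6 and Gbp10 are therefore uncertain as a split, and their sum is given beside them.

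**Figure D1:**
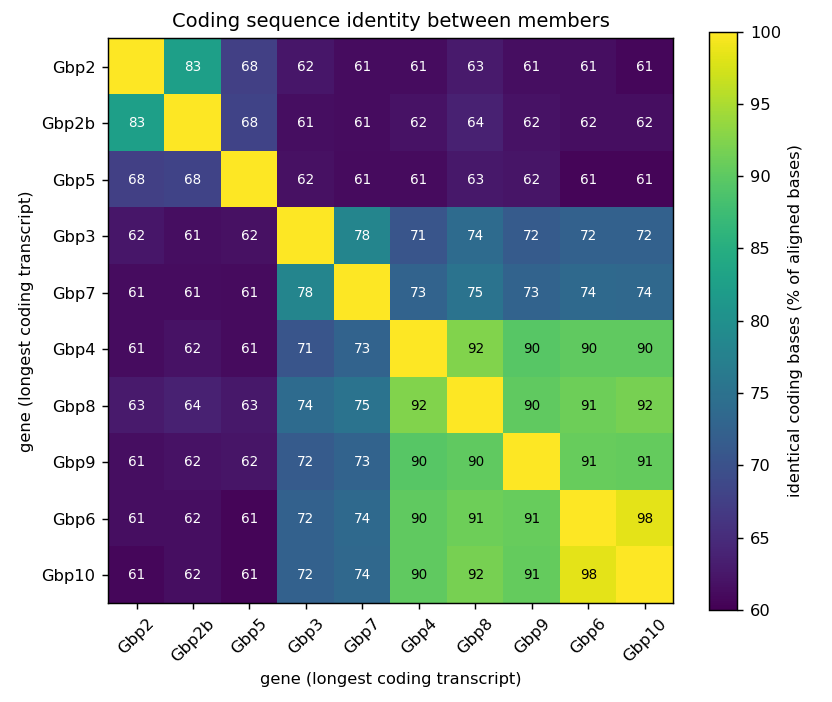
Identity of coding sequences between the 10 guanylate-binding protein genes, as the percentage of identical bases among aligned bases of the longest coding transcripts. The chromosome 5 genes (Gbp4, Gbp8, Gbp9, Gbp6, Gbp10) form a block of 89.6% to 98.4%, and Gbp6 and Gbp10 are the closest pair.

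The 90 coding bases in which Gbp6 and Gbp10 differ most show how little separates reads of these 2 genes. Coding bases 1556 to 1645 are printed from the minus strand of GRCm38 (Gbp6 at chr5:105274192-105274281, Gbp10 at chr5:105218392-105218481), with the 12 mismatched bases in capitals.
Gbp6: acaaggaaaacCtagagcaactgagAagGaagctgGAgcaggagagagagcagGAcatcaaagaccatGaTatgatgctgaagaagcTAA
Gbp10: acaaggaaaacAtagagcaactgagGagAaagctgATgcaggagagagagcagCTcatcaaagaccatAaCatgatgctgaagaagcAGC
These 12 mismatches are part of the 30 over the whole coding sequence, and no other stretch of this length holds more.

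Promoter sequence was at hand for the chromosome 3 genes in the RefSeq table of GRCm38.p6, and 3 of them are shown because they cover the strongest member, Gbp2, and the 2 that carry both kinds of interferon motif, Gbp5 and Gbp7. Motifs were searched on both strands in the 250 bases before each start, as GAAA, any 2 bases and GAAA again for the ISRE (TTTC, any 2 bases and TTTC on the other strand) and as TTCNNNGAA for the GAS, which reads the same on both. Both are in capitals in the sequences, which run on the plus strand and stop where a transcript begins, except that Gbp2 runs on to the end of its motif. The regions printed are chr3:142620413-142620613 for Gbp2, chr3:142496684-142496899 for Gbp5 and chr3:142530086-142530335 for Gbp7.
Gbp2: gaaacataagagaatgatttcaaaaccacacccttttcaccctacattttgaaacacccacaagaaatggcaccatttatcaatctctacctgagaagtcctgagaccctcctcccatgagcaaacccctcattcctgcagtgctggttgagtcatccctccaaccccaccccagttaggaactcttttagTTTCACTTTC
Gbp5: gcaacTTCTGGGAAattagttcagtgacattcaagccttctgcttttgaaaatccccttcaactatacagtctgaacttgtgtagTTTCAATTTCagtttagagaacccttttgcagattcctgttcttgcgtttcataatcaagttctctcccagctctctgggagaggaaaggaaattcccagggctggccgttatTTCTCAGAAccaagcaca
Gbp7: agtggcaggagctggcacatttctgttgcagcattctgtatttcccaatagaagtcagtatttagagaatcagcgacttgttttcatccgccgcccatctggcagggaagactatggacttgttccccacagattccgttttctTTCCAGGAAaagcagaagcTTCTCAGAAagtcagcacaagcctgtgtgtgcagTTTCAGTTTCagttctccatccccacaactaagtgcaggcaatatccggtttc
Starts here are those of the RefSeq table, which can differ from the gene spans given above, taken from GENCODE. The Gbp5 window lies inside the span of Gbp5. The Gbp2 motif, at 142620604 to 142620613, lies past the first base of the span of Gbp2, 142620602. The ISRE letters were found before the RefSeq start of all 5 chromosome 3 genes. They lay 59 to 50 bases before the start in Gbp2, 165 to 156 in Gbp5 and 53 to 44 in Gbp7. The GAS letters were found in 2 places each before Gbp5 (245 to 237 and 52 to 44 bases before the start) and Gbp7 (106 to 98 and 87 to 79), and in none of the windows of Gbp2, Gbp2b and Gbp3. A second start listed for Gbp3 had neither. Over all 32851 windows of this length, 2.98% held the ISRE letters, 7.02% the GAS letters and 0.332% both. A match of letters is a description and does not show that a factor binds there. No window was used for Gbp4, Gbp6, Gbp8, Gbp9 and Gbp10.

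Library totals ran from 12.5 to 21.7 M estimated counts, with lower totals in IFNgR1-KO than in WT in 7 of 8 mice. Ifngr1 had 305 ± 46.6 CPM (counts scaled to library size, per M) in WT and 83.9 ± 29.5 CPM in IFNgR1-KO (SD, n = 8), lower in 8 of 8 mice (log2 fold change -1.94, SE 0.20, edgeR adjusted p = 2.5e-04), and every IFNgR1-KO library lay below every WT library. Neutrophil markers summed to 43854 ± 7235 CPM in WT and 45617 ± 16860 CPM in IFNgR1-KO (SD, n = 8), and 0 of 8 were called by edgeR. The sum was lower in IFNgR1-KO in 6 of 8 mice. DESeq2 called 1 of these markers lower, limma-voom 2 and edgeR without mouse 7 called 1. The Kupffer cell markers Vsig4 and Clec4f were at 0 in 16 and in 15 libraries. Others, Adgre1, C1qa, C1qb and C1qc, were above 0 in all 16, with means of 76.5, 5.62, 14.8 and 6.21 CPM in WT. Hepatocyte markers summed to 228 ± 158 CPM in WT and 238 ± 173 CPM in IFNgR1-KO (SD, n = 8). Mitochondrially encoded mRNA took 0.595 ± 0.272% of WT and 1.39 ± 0.656% of IFNgR1-KO counts (SD, n = 8), and the IFNgR1-KO library of mouse 7 had the highest share, 2.503%. The same library had the lowest level, or a shared 0, for all members but Gbp2b among the IFNgR1-KO libraries, and values without mouse 7 are given below.

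The family was strongly expressed in WT liver neutrophils and much lower in cells sorted as IFNgR1-KO. Together the 10 genes had 2435 ± 672 CPM in WT and 394 ± 137 CPM in IFNgR1-KO libraries (SD, n = 8), so that 16.2% of the WT level was kept. The labels do not give the CD45 type of the wild-type hosts, and transcripts of Ifngr1 itself were kept at 27.5%. Whether wild-type cells were present in the IFNgR1-KO gate, and their part in the kept levels, was not tested. Within mice the kept share ran from 10.2% in mouse 7 to 21.6% in mouse 4. Of the 10 members 8 had enough counts to be tested, and all 8 were called lower in IFNgR1-KO (edgeR's quasi-likelihood test, blocked by mouse, adjusted p under 0.05 over 9851 genes). The background for that count is 2.32 percent of tested genes called lower, against 0.477 percent called higher. Each of the 8 was lower in 8 of 8 mice. Gbp8 passed the count filter through WT libraries, since 8 WT but 4 IFNgR1-KO libraries reached the minimum of 0.705 CPM. The filter asked for 8 libraries, so that the IFNgR1-KO libraries of Gbp8 would not have passed it alone. The other 7 reached the minimum in all 16 libraries. For 7 of the 8, all but Gbp9, every IFNgR1-KO library lay below every WT library, a pattern that 1.48 percent of tested genes had. In bulk RNA, fewer expressing cells and less RNA per cell cannot be told apart.

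**Figure D2:**
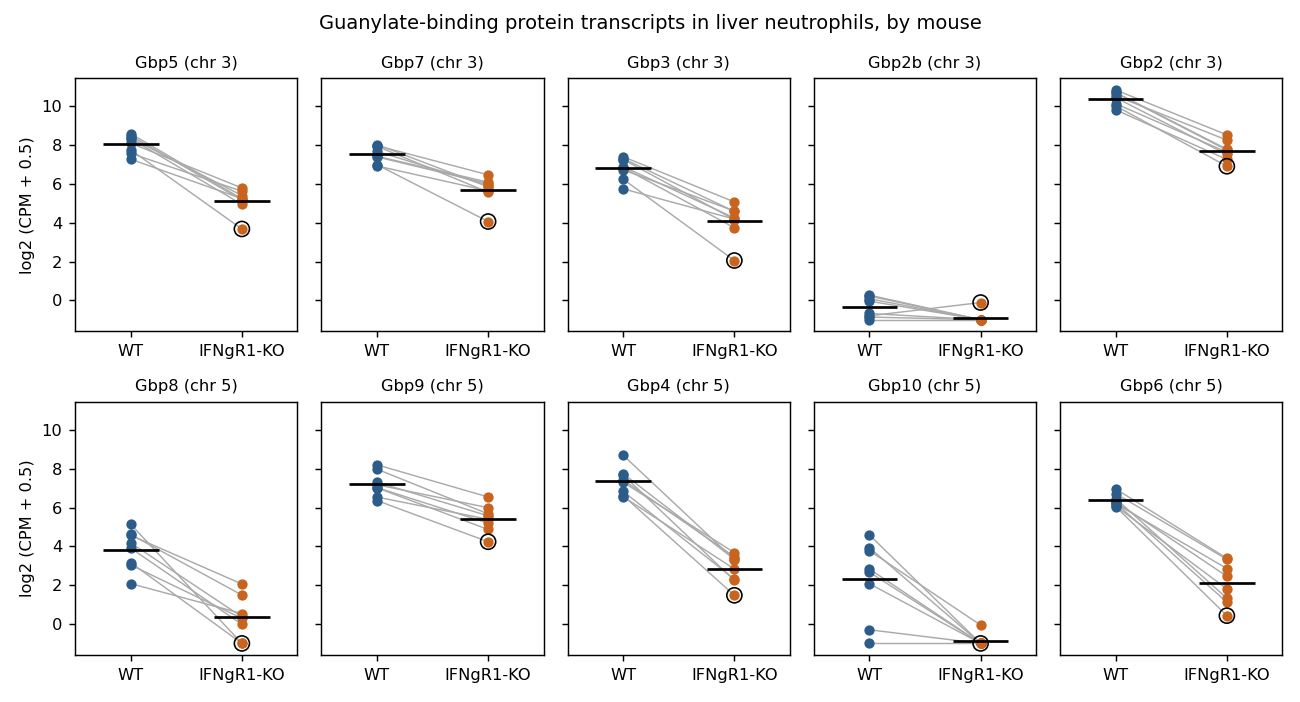
Level of each guanylate-binding protein gene, as log2 (CPM + 0.5), in the WT (blue) and IFNgR1-KO (orange) library of each of 8 mice, joined by grey lines. Black bars are means, and the ringed point is the IFNgR1-KO library of mouse 7. Gbp2, highest on this scale, goes from 1391 to 221 CPM on average, and Gbp2b stays near 0 in both groups.

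Sizes of the fall divided the tested members into those that kept under 7%, those that kept 13% to 16% and those that kept about 29% of the WT level, as ratios of group means. The first were Gbp4, Gbp6 and Gbp8, all from chromosome 5, the second were Gbp5, Gbp3 and Gbp2, all from chromosome 3, and the third were Gbp7 from chromosome 3 and Gbp9 from chromosome 5. The division was drawn after the values were seen. Neighbours in the order of falls within each of these groups were not ordered alike across mice. Gbp4 fell further than Gbp6 in 4 of 8 mice, Gbp6 further than Gbp8 in 6 and Gbp5 further than Gbp3 in 4. Gbp3 fell further than Gbp2 in 5 and Gbp7 further than Gbp9 in 5. Between groups the regularity depended on the pair. Gbp2 fell further than Gbp7 in 8 of 8 mice, by 0.85 ± 0.35 on the log2 scale (SD, n = 8). Gbp8, the least counted and the neighbour of Gbp5 in the order of falls, fell further than Gbp5 in 5 of 8 mice. Gbp6, which is not a neighbour of Gbp5 in that order, fell further than Gbp5 in 8 of 8, though by 1.36 ± 1.08.

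**Figure D3:**
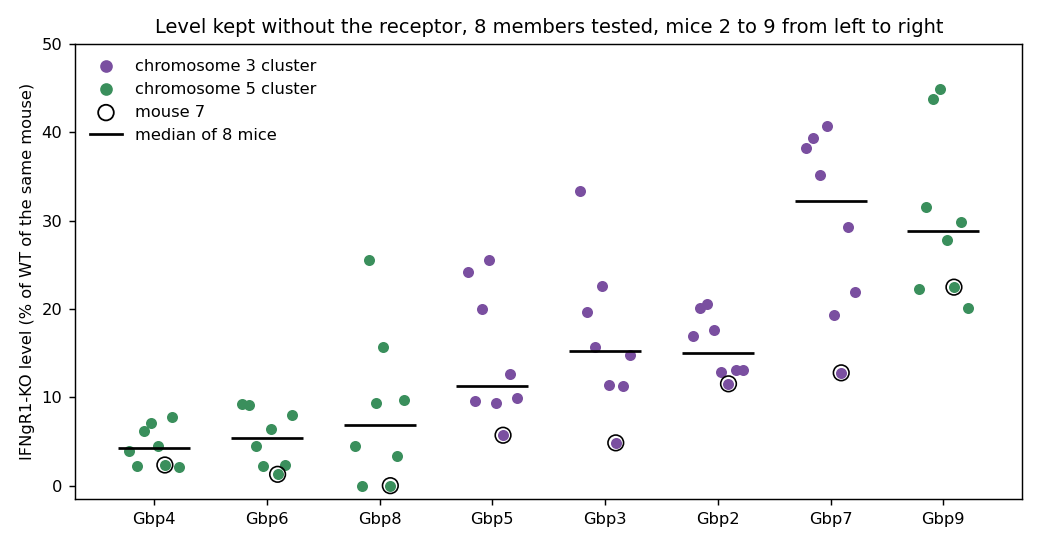
Level in the IFNgR1-KO library as a percentage of the WT library of the same mouse, for the 8 tested members, with mice 2 to 9 from left to right within each gene. Black bars are medians over 8 mice, and the ringed point is mouse 7. Gbp4 stays below 8% in every mouse, Gbp2 lies between 11.5% and 20.5%, and Gbp9 between 20.1% and 44.9%.

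Among the prenylated members, Gbp2, a factor recruited to the Toxoplasma vacuole, had the highest count of the family. WT libraries ran from 903 CPM over a median of 1442 to 1838 CPM, and IFNgR1-KO libraries from 119.8 over 207 to 369 CPM. The lowest WT library was above the highest IFNgR1-KO library by more than the whole range of the IFNgR1-KO group. Gbp2 had a log2 fold change of -2.70 (SE 0.13, adjusted p = 1.1e-06) and rank 4 by p among all genes tested. Its per-mouse log2 ratios, from -3.11 to -2.28, had the smallest spread of the 8 tested members (SD 0.32). Gbp5, which promotes assembly of the NLRP3 inflammasome, ran from 154 over a median of 298 to 386 CPM in WT and from 12.3 over 37.1 to 54.9 CPM in IFNgR1-KO. Mouse 7 was the lowest IFNgR1-KO library and the groups were apart. The log2 fold change of Gbp5 was -2.94 (SE 0.26, adjusted p = 8.0e-05).

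Gbp2b, the neighbour of Gbp2 and its closest copy, was all but absent. It had 42 counts over the 8 WT libraries and 5 over the 8 IFNgR1-KO libraries, and those 5 were all in mouse 7. No library reached the count minimum, so that Gbp2b was not tested in the main analysis. With no filter its adjusted p was 0.427. Between them Gbp2 and Gbp2b had 205078 and 47 counts over all 16 libraries, although their coding sequences were 82.5% identical.

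The other 2 chromosome 3 members, Gbp3 and Gbp7, are close copies that fell to different depths. Gbp3 ran from 53.2 over a median of 116 to 169 CPM in WT and from 3.65 over 18.1 to 33.1 CPM in IFNgR1-KO (log2 fold change -2.75, SE 0.27, adjusted p = 1.9e-04). Gbp7, which has been linked to autophagy proteins and the phagocyte oxidase, ran from 121 over 188 to 261 CPM in WT and from 16.2 over 58.5 to 88.1 CPM in IFNgR1-KO (-1.85, SE 0.20, adjusted p = 3.9e-04). Both pairs of groups were apart, with mouse 7 the lowest IFNgR1-KO library in each. Gbp3 fell further than Gbp7 in 8 of 8 mice, by 0.88 ± 0.39 on the log2 scale (SD, n = 8).

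Gbp4 and Gbp6 had the deepest falls among members with counts in every library. Gbp4 ran from 93.8 over a median of 165 to 415 CPM in WT, with mouse 3 far above the next library at 214 CPM, and from 2.29 over 8.05 to 12.3 CPM in IFNgR1-KO. Its log2 fold change was -4.62 (SE 0.28, adjusted p = 5.9e-06), rank 14 from the bottom among 9851 genes. Gbp6 ran from 65.9 over 76.6 to 125 CPM in WT and from 0.848 over 4.01 to 9.96 CPM in IFNgR1-KO. The lowest WT value of Gbp6 was thus several times the highest IFNgR1-KO value. Gbp6 had a log2 fold change of -4.44 (SE 0.37, adjusted p = 5.3e-05), rank 16 from the bottom.

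Gbp10 was detected almost only in WT. It had 1126 counts over the WT libraries and 6 over the IFNgR1-KO libraries, all 6 in mouse 9. The WT libraries were uneven, from 0 in mouse 7 and 0.314 CPM in mouse 5 to 23.6 CPM in mouse 3. Gbp10 reached the count minimum in 6 libraries and was not tested in the main analysis, and with no filter it was called lower (adjusted p = 2.6e-04). Gbp10 took 8.09 ± 6.65% of the sum of Gbp6 and Gbp10 in WT (SD, n = 8), with a range of 0% to 18.3%. The sum of the pair, which does not depend on how reads were split between them, was 93.1 ± 26.4 CPM in WT and 4.92 ± 3.68 CPM in IFNgR1-KO, with a mean log2 ratio of -4.40 ± 0.82 (SD, n = 8). Gm43302, annotated across both genes, had 21 counts in the IFNgR1-KO library of mouse 8 and none in any other library. Of the 31-base words of Gbp6 and Gbp10, 67.8% and 76.7% also occurred in Gm43302. Gbp6 had 29 counts in that library of mouse 8, so there the sum of the pair still depends on how reads were split with Gm43302.

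Gbp8 and Gbp9 share their annotated start region with Gbp4. Gbp8 was the weakest tested member and ran from 3.73 over a median of 16.1 to 34.8 CPM in WT and from 0 in mice 3 and 7 over 0.758 to 3.67 CPM in IFNgR1-KO. The highest IFNgR1-KO library, mouse 6, lay just below the lowest WT library, mouse 4. Gbp8 had a log2 fold change of -4.23 (SE 0.81, adjusted p = 0.0193) and lost its call when mouse 2, 8 or 9 was left out (adjusted p of 0.0540, 0.0664 and 0.0551) and when the mitochondrial share was a covariate (-3.62, adjusted p = 0.440). Gbp9 ran from 81.9 over 137 to 295 CPM in WT and from 18.4 over 44.5 to 93.0 CPM in IFNgR1-KO. Its groups overlapped, since the IFNgR1-KO library of mouse 3, at 93.0 CPM, was above the WT libraries of mice 5 and 7. In each mouse Gbp9 was still lower in IFNgR1-KO, with a log2 fold change of -1.78 (SE 0.16, adjusted p = 9.5e-05), the shallowest fall of the 8. Gbp4 fell further than Gbp9 in 8 of 8 mice, by 2.76 ± 0.55 on the log2 scale (SD, n = 8), although the 2 coding sequences are 89.6% identical. Reads of Gbp4, Gbp8 and Gbp9 could be split in more than 1 way, and their sum had a mean log2 ratio of -2.67 ± 0.45 (SD, n = 8).

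As whole clusters the 2 chromosomes gave similar falls. The chromosome 3 members summed to 1981 ± 494 CPM in WT and 333 ± 111 CPM in IFNgR1-KO, with a mean log2 ratio of -2.61 ± 0.40 (SD, n = 8). The chromosome 5 members summed to 454 ± 205 and 60.9 ± 26.9 CPM, with -2.91 ± 0.40 (SD, n = 8). Chromosome 5 members made up 18.1 ± 3.73% of the family's counts in WT and 15.1 ± 2.10% in IFNgR1-KO (SD, n = 8), lower in 7 of 8 mice. These sums hide the unequal falls inside chromosome 5, where Gbp4 went from 7.17% to 1.89% of the family's counts and Gbp9 from 6.43% to 11.7%. Gbp7 went from 8.09% to 14.2%, and Gbp2 held 57.6% in WT and 56.4% in IFNgR1-KO.

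Levels of different genes can be compared only per length, and on that scale Gbp2 also stood first. As RPKM, which divides CPM by the length of the longest coding transcript in kilobases, Gbp2 had 553 ± 134 in WT, Gbp5 91.3 ± 27.6 and Gbp3 44.0 ± 15.1 (SD, n = 8). Gbp4, Gbp9, Gbp7 and Gbp6 followed at 40.4, 36.6, 34.4 and 32.5 RPKM, and neighbours from Gbp3 to Gbp6 differed by less than their SDs. Gbp8 had 6.83 ± 4.20, Gbp10 2.42 ± 2.30 and Gbp2b 0.117 ± 0.105 RPKM (SD, n = 8). In IFNgR1-KO the order was Gbp2 at 87.7, Gbp5 at 12.2, Gbp9 at 10.8, Gbp7 at 10.01, Gbp3 at 7.01, Gbp6 at 1.87, Gbp4 at 1.64 and Gbp8 at 0.455 RPKM. Gbp4 thus stood at place 4 in WT and at place 7 in IFNgR1-KO. With the length of all exons in place of the longest coding transcript, Gbp4 was at place 6 in both groups, and Gbp5 went from place 2 in WT to place 5 in IFNgR1-KO.

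Mice with more of these transcripts in WT cells tended to have more in IFNgR1-KO cells. Across the 8 mice, the log2 summed level in the WT library correlated with that in the IFNgR1-KO library at Pearson's r = 0.714 and Spearman's rho = 0.810, given as a description. Without mice 2 and 7, the farthest from the median WT level, r was 0.507, so that the relation rests in part on those mice, and with each mouse left out in turn it ran from 0.597 to 0.769. Mouse 3 was highest in both libraries, at 3437 CPM in WT and 619 CPM in IFNgR1-KO. The mitochondrial mRNA share correlated with the log2 summed level at r = -0.65 over the 8 IFNgR1-KO libraries and at r = -0.11 over the 8 WT libraries, and its part in these relations was not tested.

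**Figure D4:**
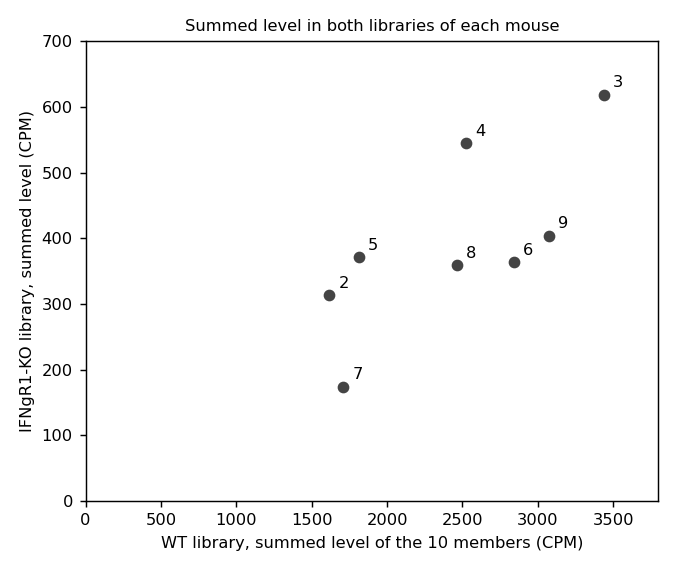
Summed level of the 10 guanylate-binding protein genes in the WT library (horizontal axis, CPM) and the IFNgR1-KO library (vertical axis, CPM) of each mouse, labelled with the mouse number. The axes have different scales. Mouse 3 is highest on both axes and mouse 7 is lowest in IFNgR1-KO, at 174 CPM.

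Levels of most pairs of members correlated from mouse to mouse in WT, and in IFNgR1-KO the correlations within chromosome 5 were lower. Over the 8 WT libraries the log2 levels of chromosome 3 pairs among tested members correlated at a median r of 0.784 (0.529 to 0.965) and those of chromosome 5 pairs at 0.689 (0.621 to 0.876). Over the 8 IFNgR1-KO libraries the medians were 0.794 and 0.285, the latter from 0.00597 to 0.713. In these libraries Gbp8, Gbp6 and Gbp4 had 139, 583 and 880 counts, and Gbp9 had 5491. The part of low counts in the lower correlations was not tested. Pairs of 1 gene from each chromosome had medians of 0.643 in WT (0.189 to 0.880) and 0.639 in IFNgR1-KO (0.0751 to 0.955). These are descriptions over libraries that share host, depth and RNA quality between the members compared. The genes whose log2 level followed the summed members most closely over the WT libraries, among 4640 genes with a mean of at least 10 CPM, were Tagap (r = 0.973), Cxcl9 (0.970), Gm12250 (0.964), Irgm1 (0.960) and Spata2 (0.958). Over the IFNgR1-KO libraries they were Tfeb (0.980), Hspa5 (0.977), Irgm1 (0.974), Tagap (0.973) and H2-Q6 (0.970). Irgm1, an immunity-related GTPase, and Tagap, a GTPase-activating protein, stood in both sets, and both were called lower in IFNgR1-KO. Spata2, Tfeb and Hspa5 were not called (adjusted p of 0.385, 0.747 and 0.897). Irf1 stood at place 7 in WT (r = 0.934), whereas Ifngr1 stood at place 2240 (r = 0.017).

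Of 16 tested genes listed for interferon gamma signalling, Ifngr1 among them, 6 were called lower and none higher by edgeR. DESeq2 and limma-voom each called 7 lower. Irf1 had 2478 ± 677 CPM in WT and 482 ± 155 CPM in IFNgR1-KO (SD, n = 8), and a log2 fold change of -2.40 (SE 0.19). This value lay between those of Gbp4 and Gbp6 on the deep side and those of Gbp7 and Gbp9 on the shallow side. Irf2, a relative of Irf1, had -0.90, Nlrc5, an activator of class I genes, -2.01, and Batf2 -6.85, the deepest of the list, beside Ifngr1 itself. The median of the list was -0.65, against 0.046 over all genes tested.

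The partners of guanylate-binding proteins on vacuoles, the immunity-related GTPases, also fell, 7 of 8 tested genes by edgeR, with a median log2 fold change of -2.43. Tgtp1 had -7.32 and Tgtp2 -5.17, deeper than any tested guanylate-binding protein, while Irgm1 at -2.33, Igtp at -2.53 and Ifi47 at -2.56 lay close to Gbp2 and Gbp3. Gm12250 had -2.10. Irgm2 had -1.44, or -0.99 and no call when the mitochondrial share was a covariate (adjusted p = 0.272), and Iigp1, at 4.74 ± 4.25 CPM in WT, was not called by edgeR (-1.52, adjusted p = 0.230) but was called lower by DESeq2. Tgtp1 and Tgtp2 are near-identical copies whose split is uncertain. Among other large GTPases of the dynamin superfamily, 1 of 9 tested genes was called by edgeR, Gvin1, an interferon-induced giant GTPase, at 213 ± 45.5 CPM in WT and 52.9 ± 17.2 CPM in IFNgR1-KO (SD, n = 8), or -2.06 on the log2 scale (SE 0.20). Limma-voom called 2 of the 9 lower, Gvin1 and Dnm2, a dynamin of endocytosis.

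Genes linked to the action or placing of guanylate-binding proteins, and type I interferon response genes, fell less or were not called. Of 11 tested inflammasome genes 3 were called lower and none higher by edgeR, namely Gsdmd, the pore of pyroptosis, at -0.78, Casp1 at -0.82 and Zbp1, a nucleic acid sensor, at -1.15. Casp4, which encodes the mouse caspase that senses bacterial lipopolysaccharide, was not called (-0.42, adjusted p = 0.209), and it was lower in 6 of 8 mice. Casp1 lost its call with library totals (-0.71, adjusted p = 0.0538) and without mouse 2, 3, 4, 6, 8 or 9 (adjusted p of 0.0672 to 0.104). As the background for the counts below, edgeR gave 1602 of all 9851 tested genes an unadjusted p under 0.05. DESeq2 called 572 genes lower and 488 higher. The conjugation machinery of ATG8 proteins helps to place guanylate-binding proteins on vacuoles. Its list had 0 of 12 tested genes called by edgeR, with 2 at an unadjusted p under 0.05 and 1 called lower by DESeq2. Those 2 were Atg7, of the machinery itself, at -0.59 (lower in 7 of 8 mice), and Tax1bp1 at 0.29 (higher in 6 of 8). Atg7 had 184 ± 25.1 CPM in WT and 127 ± 39.1 CPM in IFNgR1-KO (SD, n = 8). The most abundant genes of the list, Sqstm1 and Gabarap, had -0.17 and 0.051 and do not encode conjugation enzymes. The prenylation enzymes had 0 of 5 called by edgeR, 1 at an unadjusted p under 0.05 and 0 called by DESeq2, and all were low, with Rce1 at 7.52 ± 3.37 CPM in WT (SD, n = 8) and 0.66 and Fnta at 0.22. Of 11 tested type I interferon response genes 0 were called by edgeR, 4 had an unadjusted p under 0.05 and 3 were called lower by DESeq2. Their median log2 fold change was -0.28, and Irf7 and Oas3, the most abundant, had -0.24 and -0.85. Without mouse 7 edgeR called 3 type I genes lower.

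The summed markers of 2 other cell types were also lower in IFNgR1-KO libraries, through 1 called gene each. The 5 monocyte markers summed to 2147 to 3404 CPM in WT and 1456 to 2608 CPM in IFNgR1-KO, lower in 8 of 8 mice, and 1 of them was called, Ly6c2 (-0.73, adjusted p = 0.00543). The 9 Kupffer cell markers summed to 53.3 to 154 CPM in WT and 39.1 to 82.7 CPM in IFNgR1-KO, also lower in 8 of 8 mice, and of 5 tested Adgre1 alone was called (-1.11, adjusted p = 0.0108), with the defining Clec4f, Timd4 and Vsig4 at 0 in most libraries. With the mitochondrial share as a further term, Ly6c2 (-0.83, adjusted p = 0.0651) and Adgre1 (-0.71, adjusted p = 0.388) were not called. Ly6c2 and Csf1r made up nearly all of the monocyte sum, and Csf1r was not called (-0.31, adjusted p = 0.532). The other monocyte markers Ccr2 (0.59), Cx3cr1 (0.074) and F13a1 (-0.20) were not called and were lower in 4 of 8 mice each, with Ccr2 at 0.836 ± 0.832 CPM in WT (SD, n = 8). Among the Kupffer cell markers Cd5l (0.039), C1qa (-0.17), C1qb (-0.083) and C1qc (-0.17) were not called, and they were lower in 4 or 5 of 8 mice. The part of these cells in the change of the guanylate-binding proteins was not tested. Without mouse 7, the mouse with the lowest IFNgR1-KO levels, 8 members were called lower. With the mitochondrial share as a covariate 7 were called lower, all but Gbp8. The median log2 fold change of the tested members was -2.84 in the main fit, -2.71 without mouse 7 and -2.44 with the covariate. Each of the 8 fell less with the covariate, for instance Gbp3 from -2.75 to -2.15 and Gbp4 from -4.62 to -4.42.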

How the data were processed

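Neutrophil RNA (1 ng, oligo-dT primed, 13 PCR cycles, no molecular identifiers or strand, per the labels' protocols) was sequenced from 8 mice. Per Ensembl gene, the deposited table gives estimated counts as whole numbers, with no scaling between samples. The submitters' processing notes name Salmon 0.14.2, DESeq2 1.22.1 and mm10, with the role of each and the annotation not given in the sources used here. Names, positions and transcripts came from GENCODE mouse release 21 of the same build and promoters from RefSeq.

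Counts were fitted in R 4.3.3 with edgeR 4.0.16 (filterByExpr, TMM, quasi-likelihood F-test, mouse as a block, Benjamini-Hochberg over 9851 genes, threshold 0.05). The block rests on the design text, which ties both libraries of a number to 1 mouse. Deviations of same-mouse libraries from their group means correlated at 0.0247 to 0.314, with a mean of 0.138. Between libraries of different mice the mean was -0.018. Of the 8 WT libraries, 4 correlated best with the IFNgR1-KO library of their own mouse. Fold changes are IFNgR1-KO over WT, with SE computed as the fold change's size over the square root of its F. CPM are scaled by TMM, and per-mouse log2 ratios use CPM + 0.5. The relation of WT to IFNgR1-KO levels carries no p, because the members and lists were chosen with earlier results of these data known. Named genes were Ifngr1, the 10 members, called genes of each list (up to 6 with the smallest p, or 2 abundant ones where none was called), the 5 genes most like the summed members in each group and genes within the clusters, and other genes named were chosen after their values were seen. Alternatives used no block, other scaling, DESeq2 1.42.0, limma 3.58.1 (voom), other filters, the mitochondrial share as a covariate and each mouse left out. Alternatives for list counts and for gene length were chosen after seeing the data. The fit was tested on simulated data. Depths of 12.5 to 21.7 M counts leave members under 1 CPM resting on few counts per library. Some genes of the lists are counted but not reported here by name.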

Additional observations from a re-analysis of the deposited data

Results flagged for a closer look

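In 3 of 36 sets of 8 values, 1 library lay further from the others than Dixon's 95% limit allows. The limit is set for about 1 in 20 independent sets of normal values. That rate does not apply here, since the sets share members. A set with 7 values at 0 also passes the limit with any count in the last library. Gbp4 in the WT library of mouse 3 had 414.8 CPM, against 214.2 CPM in the next highest WT library. Gbp10 in the IFNgR1-KO library of mouse 9 had 0.463 CPM, from 6 counts, where the other 7 were at 0. Gbp2b in the IFNgR1-KO library of mouse 7 had 0.424 CPM, from 5 counts, where the other 7 were at 0.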

How the results depend on the processing

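All 8 tested members were lower under each of 16 alternatives, and 124 of 128 values kept their side of the threshold. The 4 lost calls were all of Gbp8, with values given above. The count of members called lower ran from 7 to 9, with 7 to 8 when each mouse was left out. Without the replicate block it was 8, with 216 genes lower and 52 higher, and no member changed its call. Library totals in place of TMM moved the median over all genes from 0.046 to 0.16 (log2 fold change) and gave 164 lower and 102 higher genes. DESeq2 gave 572 and 488, limma-voom 425 and 172, no filter 31 higher, and the mitochondrial covariate 85 lower and 8 higher. With each mouse left out the counts ran from 144 to 334 lower and 19 to 78 higher, against 229 and 47, and the cause was not tested. Lowest were mice 3 and 8 (144 lower each), and mouse 7 gave the highest. The correlation of summed WT and IFNgR1-KO levels ran from 0.597 without mouse 3 to 0.769 without mouse 5. Depth limits Gbp2b, Gbp8 and Gbp10, which rest on 47, 2389 and 1132 counts over all libraries.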
